A study of Mus musculus with 4 samples.

Results

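The serpins are protease inhibitors of a single protein fold, and their genes were followed here on 4 mouse whole-genome expression arrays. The members are all genes whose symbol starts with Serpin, a clade letter from a to i and a number, found through the RefSeq accession of each array probe. Serping1, the C1 inhibitor, was left out by that rule. Of 68 such genes in the RefSeq gene table, 59 had a named probe, among 20140 genes with one. The 9 without one are Serpina16, Serpina1b, Serpina3g, Serpinb9h, Serpine3 and the pseudogenes Serpina3d-ps, Serpina3e-ps, Serpina3l-ps and Serpinb1-ps1.

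Most serpins inhibit a serine protease by offering it a flexible loop as bait. When the protease cuts the loop, the serpin springs into another shape and carries the trapped enzyme with it, so each inhibitor molecule is used up. Clade A holds secreted plasma inhibitors made mainly by the liver, clade B holds inhibitors that lack a classical signal peptide and act largely inside cells, and the smaller clades hold regulators of clotting, of plasmin formation and of other processes. A few members, such as the collagen chaperone Serpinh1, do not inhibit proteases. In the mouse, several human serpin genes correspond to clusters of closely related copies, among them the Serpina1, Serpina3, Serpinb6 and Serpinb9 groups.

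RNA came from 2 tumour cell lines, each held for 24 h with interferon gamma (IFN-γ, the cytokine of activated T cells and natural killer cells) or with vehicle. LLC, titled 3LL in the labels, is the Lewis lung carcinoma line of C57BL6 mice. AB1-HA comes from a BALB/c mesothelioma and bears hemagglutinin of influenza virus as its model antigen. The 4 groups were LLC with IFN-γ, LLC with vehicle, AB1-HA with IFN-γ and AB1-HA with vehicle. By its title, the study looked for what holds back IFN-γ-inducible factors in tumour cells. The dose of IFN-γ and whether cultures were pooled are not given in the sources used here. The lines differ in tissue, mouse strain and carried antigen at once, so these cannot be told apart between them.

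There was 1 array per group. No test was therefore possible, the differences below lack any check by replicates, and precision is limited by the number of arrays. Values are spot signals scaled so that the 75th percentile of gene probes is 1000 on each array. A probe was taken as measured where the scanner marked it well above background. Differences were called by size, at 2-fold or more. Where a gene was measured on only 1 of 2 arrays compared, its fold is a lower bound, written as "at least", against the higher of its own signal and the lowest measured signal on the other array (4.72 to 5.99). Such a bound holds for the processing described here, and normexp background correction, an alternative that adds an offset before logs are taken, gave smaller values where stated below. The share of gene probes well above background was 57.5% to 58.2% per array, with no saturated spot. The IFN-γ response was present in both lines: 14 of 18 reference genes were at least 2-fold higher in LLC and 13 of 17 with a value in AB1-HA, with Irf1 21.6-fold and 21.8-fold higher. Of the lines' own markers, Msln (mesothelin) read 35.8 and 96.5 in LLC with IFN-γ and vehicle, against 27361 and 36442 in AB1-HA, and Pdpn and Krt19 were likewise lower in LLC. The other mesothelial markers measured, Krt8, Krt18 and Bnc1, went the other way, with Krt18 at 65933 and 83935 in LLC with IFN-γ and vehicle and at 60.5 and 173 in AB1-HA. Their list of 10 therefore had 3 markers higher and 3 lower in LLC on the vehicle arrays, while Wt1, Upk3b, Lrrn4 and Calb2 were not well above background on any array. Of 9 lung epithelial markers, only Krt7 and Sftpd were measured on any array. Epcam, Cdh1, Nkx2-1 and Sftpc were not. Signals come from bulk RNA, in which fewer cells with a transcript and less of it per cell cannot be told apart.

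Serpina3f and Serpina3i had the largest differences between IFN-γ and vehicle in LLC, and Serpinb9 was past 2-fold in both lines, so the promoter windows of these 3 genes are shown before the values. They are RefSeq windows of 300 bases on build GRCm38.p6, of which the last 50 follow the start of the gene, written 5′ to 3′ on the gene's strand. Capitals mark a match to TTCNNNGAA, the palindromic gamma-activated site, in Serpina3f (chr12:104214294-104214593, plus strand) and Serpina3i (chr12:104262872-104263171, plus strand). In Serpinb9 (chr13:33004291-33004590, plus strand) they mark a match to the core of the interferon-stimulated response element (GAAA, any 2 bases, GAAA), read on the opposite strand.
Serpina3f: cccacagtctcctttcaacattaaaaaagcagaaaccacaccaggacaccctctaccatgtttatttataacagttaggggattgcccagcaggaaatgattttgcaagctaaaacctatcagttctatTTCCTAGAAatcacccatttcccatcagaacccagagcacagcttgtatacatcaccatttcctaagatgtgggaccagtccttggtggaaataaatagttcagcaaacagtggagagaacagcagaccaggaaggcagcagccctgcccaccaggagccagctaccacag
Serpina3i: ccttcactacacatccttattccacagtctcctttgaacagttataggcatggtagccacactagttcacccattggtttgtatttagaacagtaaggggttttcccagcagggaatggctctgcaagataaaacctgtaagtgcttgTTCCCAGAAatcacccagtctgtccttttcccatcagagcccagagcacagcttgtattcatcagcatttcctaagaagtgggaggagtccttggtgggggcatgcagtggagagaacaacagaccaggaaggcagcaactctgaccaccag
Serpinb9: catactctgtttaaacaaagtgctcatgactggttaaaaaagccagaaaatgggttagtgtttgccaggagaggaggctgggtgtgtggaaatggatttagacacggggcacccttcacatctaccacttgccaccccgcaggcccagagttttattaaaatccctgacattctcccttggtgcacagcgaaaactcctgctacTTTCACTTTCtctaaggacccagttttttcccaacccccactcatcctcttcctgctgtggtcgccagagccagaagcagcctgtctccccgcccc
The match TTCCTAGAA began 121 bases before the start of Serpina3f and TTCCCAGAA 102 bases before that of Serpina3i. Over the aligned bases the 2 windows were 83.3% identical (224 of 269), against 51.2% for Serpina3f and Serpinb9. A second start site of Serpina3f holds the same match in its own window. In Serpinb9, TTTCACTTTC began 46 bases before the start.

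Both motifs were searched on both strands in all windows, overlaps between motifs being allowed. TTCNNNGAA stood in 8.3% of 32851 mouse windows and the response element core in 3.44%. Among 49 serpin genes with a window, the first motif was found for 7 (Serpina11, Serpina1f, Serpina3f, Serpina3i, Serpinb2, Serpinb6a and Serpinb9c) and the second for 3 (Serpina3a, Serpinb6a and Serpinb9). By windows, the counts were 10 and 3 of the 58 windows of these genes. The 10 count the same match more than once, since Serpina11, Serpina3f and Serpinb2 have overlapping windows. Of the 9 genes past 2-fold in LLC that have a window, 4 held a match to either motif (Serpina3f, Serpina3i, Serpinb2 and Serpinb9). The 5 without one were Serpina1a, Serpina1c, Serpinb6d, Serpinb6e and Serpind1. The other serpins with a match, Serpina11, Serpina1f, Serpina3a, Serpinb6a and Serpinb9c, were not past 2-fold in LLC. The share of all genes with either motif was not computed, so the 4 of 9 have no background to be read against. Serpinb6a had both motifs and was 1.29-fold higher in LLC with IFN-γ. Such a match describes letters in a short window, and no binding was measured.

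Across the family, 33 of the 59 genes were well above background on at least 1 array, 19 of them on all 4. The other 26 stayed at signals of 1.03 to 5.26. Measured members numbered 25 in LLC with IFN-γ, 24 in LLC with vehicle, 28 in AB1-HA with IFN-γ and 26 in AB1-HA with vehicle, or 40.7% to 47.5% of the family, where 64.1% to 65.5% of all genes were measured. Clade A had 11 of 23 genes measured on some array and clade B 14 of 27, while in clades C, D, E, F and H all 7 genes were. The 12 unmeasured clade A genes were Serpina12, Serpina1d, Serpina3a, Serpina3c, Serpina3j, Serpina3k, Serpina3m, Serpina3n, Serpina4-ps1, Serpina5, Serpina6 and Serpina7. The 13 of clade B were Serpinb10, Serpinb11, Serpinb12, Serpinb13, Serpinb1c, Serpinb3a, Serpinb3b, Serpinb3d, Serpinb5, Serpinb7, Serpinb9b, Serpinb9d and Serpinb9e, and Serpini2 (clade I) was the last. The hepatocyte markers looked up beside clade A, Alb (albumin) among them, were not well above background on any array (0 of 5 with a probe, with summed signals of 6.37 to 9.04).

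**Figure D1:**
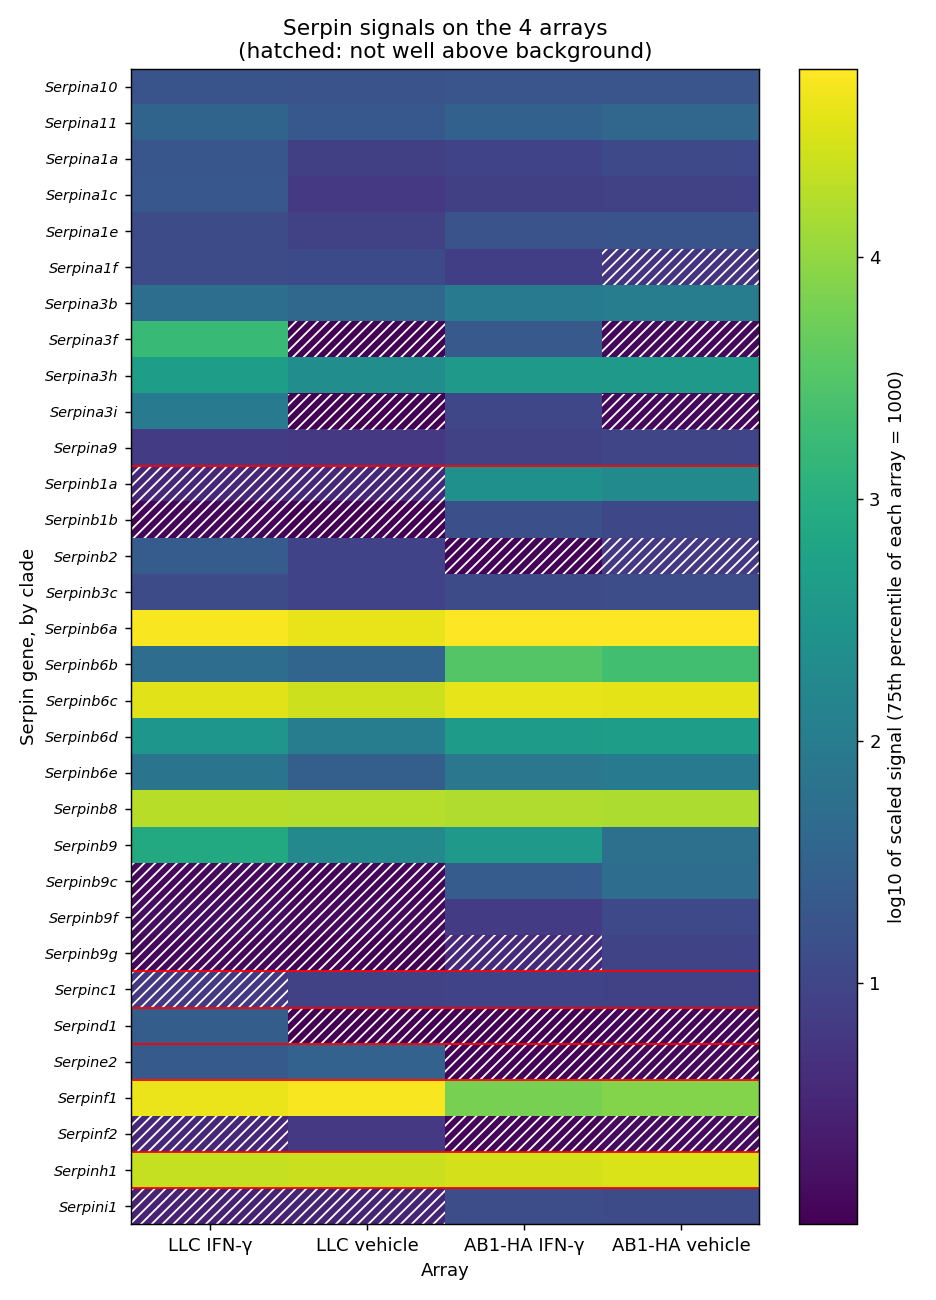
Scaled signal (log10, colour) of 32 measured serpin genes (rows, by clade, with red lines between clades) on the 4 arrays (columns), with hatching where a gene was not well above background. Serpina3f and Serpina3i are hatched in both vehicle columns only, and Serpinb1a, Serpinb1b, Serpinb9c, Serpinb9f and Serpini1 in both LLC columns only. Colours of different genes come from different probes and are not comparable down a column.

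The first question was which serpins differed between IFN-γ and vehicle within LLC. Among 27 members with a value, IFN-γ was at least 2-fold above vehicle in 10 and as far below it in 0, that is 37% of members higher, against a background of 3.58% of all genes with a value higher and 1.36% lower. The members' median log2 difference was 0.47, where that of all genes was −0.06, and 22 members lay above 0. The 10 were 5 clade A genes (Serpina3f, Serpina3i, Serpina3h, Serpina1a and Serpina1c), 4 clade B genes (Serpinb9, Serpinb6d, Serpinb6e and Serpinb2) and Serpind1 of clade D. In AB1-HA the same comparison gave 2 higher of 29 members, Serpinb9 and Serpina3f, or 6.9% against a background of 2.98%. In that line 1 member was lower, Serpinb9c, or 3.45% against a background of 1.17%. The AB1-HA members had a median of −0.09, beside −0.08 over all genes. Of the values, 5 of 27 in LLC and 4 of 29 in AB1-HA were bounds, with 1 of the 2 arrays at background. Serpina3f, Serpina3i and Serpind1 in LLC, and Serpina3f in AB1-HA, thus had a value only through their IFN-γ array. With both arrays required to be well above background, 7 of 22 members were higher in LLC, against 372 of 12884 genes. In AB1-HA that filter left 1 of 25, against 314 of 12700.

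Among all genes past 2-fold, 72.5% were higher in LLC and 71.9% in AB1-HA, a split that moved with the processing: in LLC to 55.9% with array median scaling, 60.7% with quantile, 60.3% with cyclic loess normalization and 92.4% with normexp background correction, and in AB1-HA to 81.6% with loess and 92.9% with normexp. Array median scaling also moved the median of all genes in LLC to −0.20, and that of the serpins to 0.32. The LLC vehicle array held the lowest level of the 4 arrays for 14 of the 19 members measured on all of them, where it did so for 27.6% of 11985 genes, and its part in the LLC differences was not tested.

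**Figure D2:**
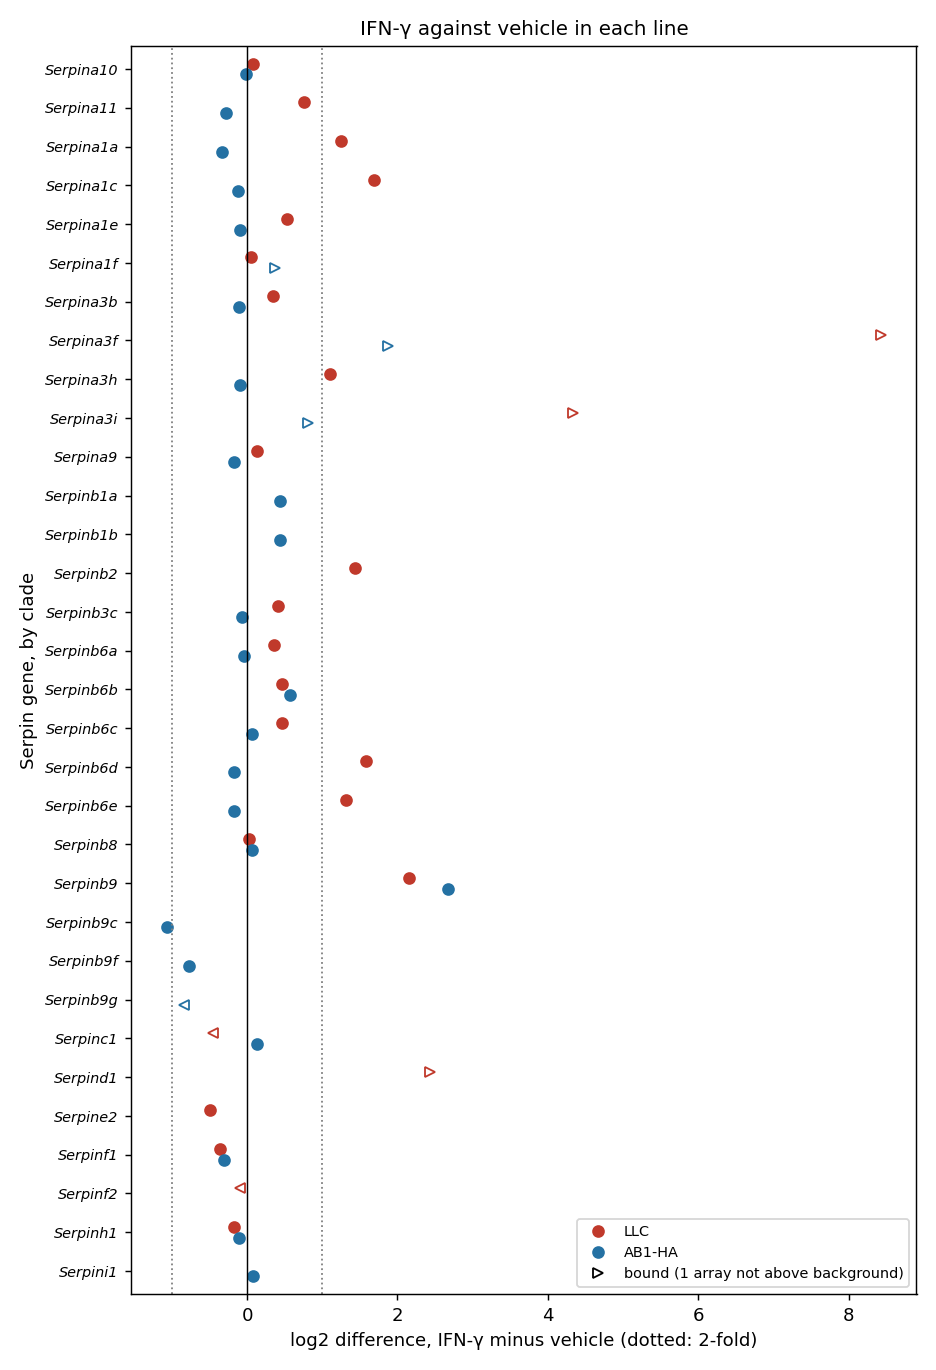
Log2 difference of IFN-γ minus vehicle for measured serpin genes in LLC (red) and AB1-HA (blue), each from 1 array per condition. Triangles are bounds and point away from 0, and dotted lines mark 2-fold. Serpina3f and Serpina3i lie farthest to the right in LLC, and Serpinb9 is past 2-fold in both lines.

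The Serpina3 cluster on chromosome 12 is the mouse expansion of human SERPINA3, which encodes alpha-1-antichymotrypsin, an acute-phase inhibitor of cathepsin G. Serpina3f read 1629 in LLC with IFN-γ and 1.08, not well above background, with vehicle. It read 22.0 in AB1-HA with IFN-γ and 1.29, again not above background, with vehicle. Signal was thus present only on the IFN-γ arrays, at least 345-fold over vehicle in LLC and at least 3.68-fold in AB1-HA. A second probe of the gene gave at least 105-fold and at least 2.76-fold. Between the IFN-γ arrays, LLC was 73.9-fold above AB1-HA, or 29.9-fold by the second probe. With normexp the log2 differences were 4.88 in LLC and 1.06 in AB1-HA, where the bounds above are 8.43 and 1.88, and that between the lines was 4.04, where it is 6.21 above.

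Serpina3i, 3 places further along the cluster, showed the same distribution over the arrays at lower signals. Its signals were 95.1 and 1.02 in LLC with IFN-γ and vehicle, and 10.5 and 1.25 in AB1-HA with IFN-γ and vehicle, both vehicle signals being not well above background. That is at least 20.1-fold in LLC and at least 1.75-fold, short of the threshold, in AB1-HA. By a dimmer second probe it was at least 3.05-fold in LLC and unmeasured in AB1-HA. On the IFN-γ arrays it was 9.07-fold higher in LLC. With normexp its log2 difference was 1.31 in LLC, where the bound above is 4.33, and 1.21 between the lines, where it is 3.18 above.

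Between those genes lies Serpina3h, a transcribed pseudogene, which was measured on every array. It read 478 and 223 in LLC with IFN-γ and vehicle, and 364 and 387 in AB1-HA. The LLC vehicle array was the low one of the 4, so the gene was 2.15-fold higher with IFN-γ in LLC and 1.06-fold lower in AB1-HA. The LLC difference was short of 2-fold with array median scaling (log2 0.96) and with normexp (0.87). Serpina3b read 52.9 and 41.5 in LLC with IFN-γ and vehicle, and 95.4 and 102 in AB1-HA, with no 2-fold difference within a line. Serpina3a, Serpina3c, Serpina3j, Serpina3k, Serpina3m and Serpina3n were at background throughout. Serpina3g, the neighbour of Serpina3f, had no named probe, and whether probes of these near-identical copies read each other's transcripts was not tested.

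The Serpina1 genes are the mouse copies of alpha-1-antitrypsin, the plasma inhibitor of neutrophil elastase. Serpina1a read 18.9 and 7.96 in LLC with IFN-γ and vehicle, and 9.0 and 11.3 in AB1-HA, which makes it 2.37-fold higher in LLC and 1.25-fold lower in AB1-HA. Serpina1c read 20.0 and 6.19 in LLC with IFN-γ and vehicle, and 8.01 and 8.73 in AB1-HA, 3.23-fold higher and 1.09-fold lower. Both genes were dim, and LLC with IFN-γ was the high array of the 4. Their start-site windows were 94.9% identical (279 of 294 aligned bases), and whether the copies share signal on these probes was not tested. Both LLC differences were under 2-fold with normexp, at log2 0.39 and 0.32, and a second Serpina1a probe was not well above background on any array.

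The rest of clade A varied less. Serpina1e read 12.2 and 8.45 in LLC with IFN-γ and vehicle, and 16.4 and 17.5 in AB1-HA, though its other probe gave a bound of 1.56 on the log2 scale, past 2-fold, in LLC. Serpina11 read 34.3 and 20.3 in LLC with IFN-γ and vehicle, and 31.0 and 37.6 in AB1-HA. It was 1.69-fold higher with IFN-γ in LLC and 1.21-fold lower in AB1-HA. Serpina10, an inhibitor of clotting factor Xa together with protein Z, was 1.05-fold higher with IFN-γ in LLC and 1.01-fold lower in AB1-HA, with signals of 16.9 to 18.4. Serpina9 and Serpina1f lay near background, at 5.23 to 12.1 over the 4 arrays, and neither passed 2-fold.

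Serpinb9 inhibits granzyme B, the protease that cytotoxic lymphocytes deliver into target cells. It was the only serpin measured on all 4 arrays that was past 2-fold in both lines. Its signals were 787 in LLC with IFN-γ and 176 with vehicle, and 371 in AB1-HA with IFN-γ and 58.0 with vehicle. The difference was 4.47-fold in LLC and 6.38-fold in AB1-HA, and the 2 lines' effects lay 0.52 apart on the log2 scale, the LLC effect being the smaller one, while with normexp it was the larger one by 0.18. LLC had 2.12-fold more signal than AB1-HA with IFN-γ (log2 0.96 with array median scaling and 0.93 with normexp) and 3.04-fold more with vehicle (0.76 with normexp). Over 9 alternative ways of processing, the log2 difference stayed between 1.71 and 2.16 in LLC and between 1.54 and 2.78 in AB1-HA. Granzyme B itself (Gzmb) was not well above background on any array.

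The other genes of the Serpinb9 cluster on chromosome 13 did not share that pattern. Serpinb9c read 1.34 and 1.15 in LLC with IFN-γ and vehicle, both not above background, and 24.7 and 51.6 in AB1-HA with IFN-γ and vehicle. It was therefore 2.09-fold lower with IFN-γ in AB1-HA, a difference that fell short of 2-fold with loess, with normexp and with the mean over its probes. A second Serpinb9c probe was not well above background on any array. Serpinb9f, also at background in LLC (1.52 and 1.30 with IFN-γ and vehicle), read 6.68 and 11.4 in AB1-HA. Serpinb9g read 1.26 and 1.07 in LLC and 3.82 in AB1-HA with IFN-γ, all not above background, and 9.53 in AB1-HA with vehicle, at least 1.80-fold lower with IFN-γ. All 3 of these genes thus had their highest signal in AB1-HA with vehicle.

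Serpinb6d, Serpinb6e, Serpinb6c and Serpinb6a stand at the end of the same cluster. Serpinb6a, an inhibitor of cathepsin G, was the brightest member and read 52929 and 41098 in LLC with IFN-γ and vehicle, and 58269.8 and 60155 in AB1-HA. Serpinb6c read 36318 and 26255 in LLC with IFN-γ and vehicle, and 40528 and 38754 in AB1-HA. Neither passed 2-fold anywhere, and in both the LLC vehicle array was the lowest.

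Serpinb6d read 323 in LLC with IFN-γ and 108 with vehicle, and 431 in AB1-HA with IFN-γ and 484 with vehicle. Serpinb6e read 70.4 and 28.3 in LLC with IFN-γ and vehicle, and 78.1 and 87.9 in AB1-HA. They were 3.00-fold and 2.49-fold higher with IFN-γ in LLC, and 1.12-fold lower each in AB1-HA. In these neighbours the other 3 arrays lay within 2-fold of each other and the LLC vehicle array stood at least 2-fold below all of them, as it did for 0.517% of 11985 genes. Their windows shared 78% of 277 aligned bases, and only Serpinb6d stayed past 2-fold with normexp. Whether the probes of these 2 genes also read transcripts of each other or of the far brighter Serpinb6a and Serpinb6c was not tested.

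Serpinb6b, the mouse granzyme A inhibitor, followed the cell line and not the treatment. It read 50.6 and 36.5 in LLC with IFN-γ and vehicle, and 3221 and 2161 in AB1-HA with IFN-γ and vehicle. LLC was 59.2-fold lower with vehicle and 63.7-fold lower with IFN-γ, while IFN-γ was 1.39-fold above vehicle in LLC and 1.49-fold in AB1-HA. Serpinb1a, which inhibits neutrophil elastase, proteinase 3 and cathepsin G, had the same split. Its signals of 3.50 and 3.60 in LLC with IFN-γ and vehicle were not above background, against 256 and 188 in AB1-HA, so it was at least 44.1-fold lower in LLC with IFN-γ and at least 39.8-fold lower with vehicle, though with normexp only by 2.08 and 1.26 on the log2 scale. Its relative Serpinb1b read 1.19 and 1.0 in LLC, both at background, and 14.8 and 10.9 in AB1-HA with IFN-γ and vehicle.

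Serpinb2 (plasminogen activator inhibitor 2, PAI-2) read 24.3 in LLC with IFN-γ and 8.98 with vehicle. Its signals of 1.11 and 6.27 in AB1-HA with IFN-γ and vehicle were not above background. The gene was 2.71-fold higher with IFN-γ in LLC, and at least 4.58-fold higher in LLC than in AB1-HA on the IFN-γ arrays, both calls being lost with normexp. Serpinb8, which inhibits furin as a human protein, differed little, with 18195.5 and 17910.5 in LLC with IFN-γ and vehicle and 16093 and 15382 in AB1-HA. Serpinb3c, spotted 10 times per array, read 12.4 and 9.29 in LLC with IFN-γ and vehicle, and 12.8 and 13.4 in AB1-HA. The SD of its log2 difference among repeat spots was 0.18 in LLC and 0.17 in AB1-HA, against a median of 0.040 and 0.062 over all repeated probes, and this covers spot noise alone.

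Heparin cofactor II (Serpind1), a thrombin inhibitor, was measured in LLC with IFN-γ alone, at 25.5. Its signals of 1.02 in LLC with vehicle, 1.07 in AB1-HA with IFN-γ and 1.23 in AB1-HA with vehicle were not above background. That is at least 5.39-fold over vehicle in LLC and at least 4.80-fold over AB1-HA with IFN-γ, though neither remained past 2-fold with normexp. Antithrombin (Serpinc1) lay near background, at 6.27 in LLC with IFN-γ, where it was not above it, 8.55 in LLC with vehicle, and 9.11 and 8.29 in AB1-HA.

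**Figure D3:**
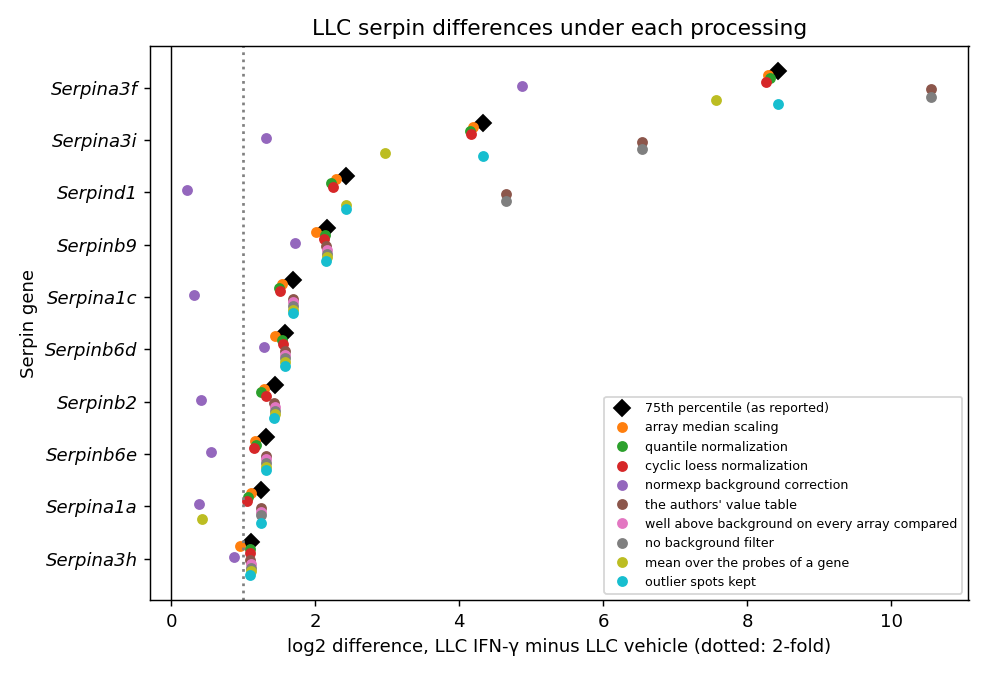
Log2 difference of IFN-γ minus vehicle in LLC for the 10 serpin genes past 2-fold, as reported (black diamonds) and under each alternative processing (coloured points), with the dotted line at 2-fold. Under normexp, Serpina3f, Serpina3i, Serpinb9 and Serpinb6d lie right of the line and the other 6 genes left of it.

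The next question was where the IFN-γ effect itself differed between lines, over the 19 members measured on all 4 arrays. For 6 of them (31.6%) the LLC effect was at least 2-fold above the AB1-HA effect and for 0 below, against backgrounds of 2.54% and 1.69% of 11985 genes. They were Serpina1c (1.81 on the log2 scale), Serpinb6d (1.75), Serpina1a (1.57), Serpinb6e (1.48), Serpina3h (1.19) and Serpina11 (1.04). Serpina11 was short of 2-fold with array median scaling, quantile, loess and normexp (lowest 0.050), and with normexp only Serpinb6d stayed past it among these 6. The members' median difference of effects was 0.45, that of all genes 0.03. All 6 were lower with IFN-γ in AB1-HA by less than 2-fold, and in all 6 the LLC vehicle array held the lowest of the 4 signals. Of all genes called, 60% were on the LLC side as scaled here, 39.9% with array median scaling, 47% with quantile and 36.1% with loess. Serpina3f, Serpina3i and Serpind1 could not enter this comparison, having vehicle arrays at background. No interaction can be tested with 1 array per group.

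The lines were then compared directly. With vehicle, 3 of 30 members were at least 2-fold higher in LLC (10%, background 16.4%) and 11 were at least 2-fold lower (36.7%, background 15.9%), with a median of −0.56 on the log2 scale beside −0.05 over all genes. The 3 higher were Serpinf1, Serpine2 and Serpinb9. The 11 lower were Serpina1e and Serpina3b of clade A, Serpini1, and 8 clade B genes, namely Serpinb1a, Serpinb1b, Serpinb6b, Serpinb6d, Serpinb6e, Serpinb9c, Serpinb9f and Serpinb9g. With IFN-γ, 10 of 31 members were higher in LLC (32.3%, background 15.4%) and 5 were lower (16.1%, background 13.1%), the median being −0.05 beside 0.03. Among the 10 higher were Serpina1a, Serpina1c, Serpina3f, Serpina3i, Serpinb2, Serpinb9, Serpind1, Serpine2 and Serpinf1. The 5 lower were Serpinb1a, Serpinb1b, Serpinb6b, Serpinb9c and Serpini1. On the IFN-γ arrays, normexp took Serpina1a, Serpina1c, Serpinb2, Serpinb9 and Serpind1 of the higher genes under 2-fold and left Serpine2 without a value. Of the lower ones, it took Serpinb1b and Serpini1 under 2-fold and left Serpinb9c without a value. Serpina1a was also under it with array median scaling, quantile normalization and the mean over probes, and Serpinb9 with array median scaling. With the mean over probes, Serpinb9c and Serpini1 had no value on the IFN-γ arrays. On the vehicle arrays, normexp took Serpinb9 and Serpine2 of the higher genes under 2-fold. Of the lower ones, it took Serpina1e, Serpina3b, Serpinb1b, Serpinb6e, Serpinb9c, Serpinb9g and Serpini1. Loess also took Serpina1e, Serpinb1b, Serpinb9f and Serpinb9g under it, quantile normalization Serpina1e and Serpinb9g, and the mean over probes Serpinb9c. That mean also left Serpini1 without a value.

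**Figure D4:**
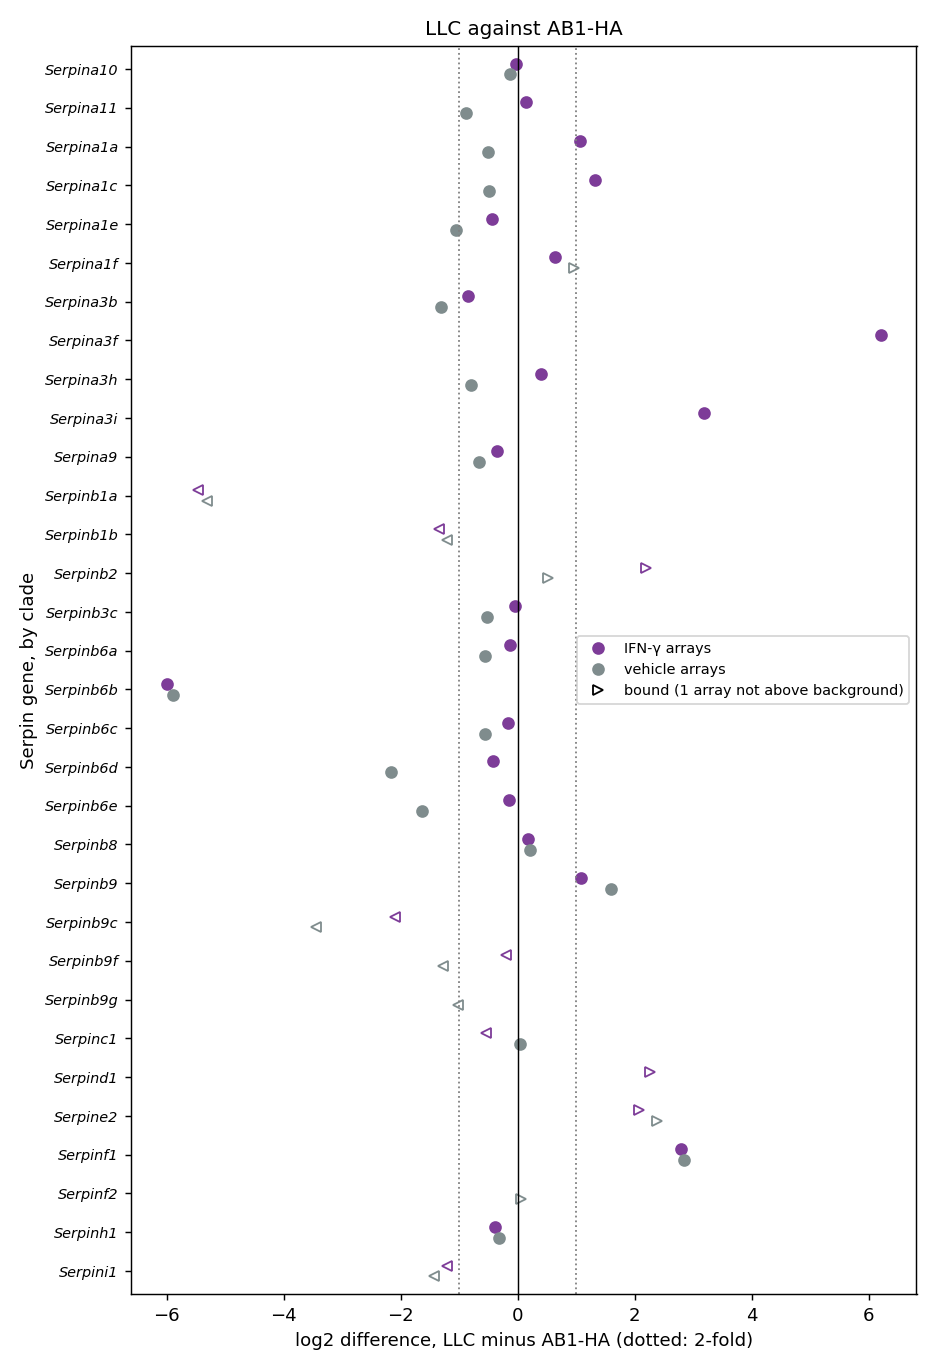
Log2 difference of LLC minus AB1-HA for measured serpin genes on the IFN-γ arrays (purple) and on the vehicle arrays (grey), each from 1 array per line. Triangles are bounds, and dotted lines mark 2-fold. Serpinb1a and Serpinb6b lie near −5 to −6 under both conditions, and Serpinf1 near 3.

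Pigment epithelium-derived factor (Serpinf1), a secreted serpin without inhibitory action, was the bright gene with the widest gap in favour of LLC. It read 42663 and 54663 in LLC with IFN-γ and vehicle, and 6171 and 7659.95 in AB1-HA. The LLC arrays lay above both AB1-HA arrays, 6.91-fold with IFN-γ and 7.14-fold with vehicle, and a second probe gave 5.78-fold and 6.55-fold. Within a line IFN-γ was lower by 0.36 in LLC and by 0.31 in AB1-HA on the log2 scale. Serpinf2 (alpha-2-antiplasmin), its neighbour, was measured only in LLC with vehicle, at 6.21.

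Serpine2 (protease nexin-1), which inhibits thrombin and plasminogen activators, read 22.3 and 31.3 in LLC with IFN-γ and vehicle. In AB1-HA its signals of 1.1 and 1.26 were at background, which makes it at least 4.20-fold higher in LLC with IFN-γ and at least 5.23-fold higher with vehicle. With normexp the vehicle difference was short of 2-fold (log2 0.39), and the difference on the IFN-γ arrays had no value. Serpini1 (neuroserpin), an inhibitor of tissue plasminogen activator, was the opposite case, at background in LLC (3.04 and 3.12 with IFN-γ and vehicle) and at 13.5 and 12.8 in AB1-HA. A second Serpini1 probe, however, was not well above background on any array. Serpinh1 (HSP47), the chaperone that binds procollagen in the endoplasmic reticulum, was even across the arrays, with 22483.5 and 25269.8 in LLC with IFN-γ and vehicle and 29546 and 31685 in AB1-HA.

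Target proteases and partners of the serpins were taken from lists. Counts of their members past 2-fold are to be read against the shares of all genes given above, which are 3.58% higher and 1.36% lower in LLC, 2.98% and 1.17% in AB1-HA, and 16.4% and 15.9% between the vehicle arrays. With 1 gene of 11 or 12 called, a list cannot be set apart from these shares. Of 17 genes of plasminogen activation and its receptors, 11 had a value in LLC, with 0 higher and 1 lower, and 12 in AB1-HA, with 1 higher and 1 lower. Plat (tissue plasminogen activator) read 393 and 1060.49 in LLC with IFN-γ and vehicle, and 81.3 and 140 in AB1-HA, being lower with IFN-γ by 1.43 and 0.78 on the log2 scale. Plau (urokinase), at 1427 and 1199.82 in LLC with IFN-γ and vehicle and 246 and 246 in AB1-HA, differed by 0.25 and 0.00. Its receptor gene Plaur was lower with IFN-γ in AB1-HA (4471 against 9548) and the plasminogen receptor gene Plgrkt higher in that line (3745 against 1871). Plgrkt was also higher with IFN-γ in LLC (4407 against 2250), by 1.96-fold, just short of the threshold. Its LLC effect minus its AB1-HA effect was −0.03 on the log2 scale, so the call in AB1-HA alone does not set the lines apart. Between vehicle arrays 2 of 12 genes with a value were higher in LLC and 2 lower, shares near the 16.4% and 15.9% of all genes. Plat (7.58-fold) and Plau (4.89-fold) were the higher ones, and Hgf (at least 4.12-fold) and Vldlr (4.03-fold) the lower ones.

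Of 21 coagulation genes, 12 had a value in LLC, with 0 higher and 1 lower, and 11 in AB1-HA, with 1 higher and 0 lower. The gene lower in LLC was Proc (protein C), at 70.6 with IFN-γ and 155 with vehicle. The gene higher in AB1-HA was F3 (tissue factor), at 679 with IFN-γ and 266 with vehicle. Between vehicle arrays, 5 of 11 were higher in LLC and 0 lower (all genes 16.4% and 15.9%), led by F2rl1 (16.03-fold), Proc (12.9-fold) and F3 (8.16-fold).

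Granule serine proteases, the targets of several clade B serpins, were mostly unmeasured: 15 of 21 genes were not well above background on any array. The 6 with a value in LLC included 0 higher and 1 lower, Gzme (granzyme E), at 41.1 with IFN-γ and 169 with vehicle. None of the 4 with a value in AB1-HA passed 2-fold. Mcpt8, Gzme and Elane (neutrophil elastase) were higher in LLC than in AB1-HA with vehicle, at least 29.5-fold, at least 28.2-fold and 2.99-fold. The cathepsin G gene (Ctsg) and the proteinase 3 gene (Prtn3) were at background on all 4 arrays.

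The list of cathepsins and legumain, which also holds Ctsa (a serine carboxypeptidase) and Ctsd (an aspartic protease), had 3 of 13 genes higher in LLC with IFN-γ and 2 of 11 in AB1-HA, with 0 lower in either. They were Ctss (at least 2.56-fold in LLC and at least 15.1-fold in AB1-HA), Ctsw (2.02-fold and 2.04-fold) and, in LLC, Ctso (2.16-fold). Ctsc (at least 328-fold), Ctsh (at least 36.8-fold) and Ctsf (3.71-fold) were higher in LLC than in AB1-HA with vehicle. The trypsin-like proteases and convertases had 3 higher and 1 lower of 16 in LLC, and 3 higher and 1 lower of 18 in AB1-HA. The complement proteases C1s1 and C1ra were higher in both lines, C1s1 at 2778 and 452 in LLC with IFN-γ and vehicle and at 5661 and 438 in AB1-HA. In LLC, St14 (matriptase) was at least 5.56-fold higher and Prss23 3.31-fold lower. In AB1-HA, Prss41 was at least 2.02-fold higher and Tmprss11e 2.21-fold lower. Furin, the target of human SERPINB8, was 1.12-fold higher with IFN-γ in LLC and 1.11-fold lower in AB1-HA.

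Inhibitors outside the serpin family had 2 higher and 1 lower of 19 in LLC, and 1 higher and 1 lower of 17 in AB1-HA. Spint2, a Kunitz-type inhibitor of matriptase and hepsin, read 826 and 225 in LLC with IFN-γ and vehicle, and 805 and 1002 in AB1-HA, so that LLC with vehicle was again the low array. Slpi was 2.38-fold higher and Pi16 at least 5.63-fold lower in LLC with IFN-γ. Spink2 was 3.65-fold higher and Cst6 2.12-fold lower in AB1-HA with IFN-γ. Of the 28 collagen folding partners of Serpinh1, 27 had a value in LLC, with 0 higher and 2 lower (Col1a1, at least 3.40-fold, and Col3a1, 2.05-fold), while 0 of 28 passed 2-fold in AB1-HA. Between vehicle arrays 5 of the 28 were higher in LLC, led by Col4a1 (6.91-fold), and 5 lower, led by Col1a2 (4164-fold), shares near the 16.4% and 15.9% of all genes, while Serpinh1 itself was 1.25-fold lower in LLC.

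**Figure D5:**
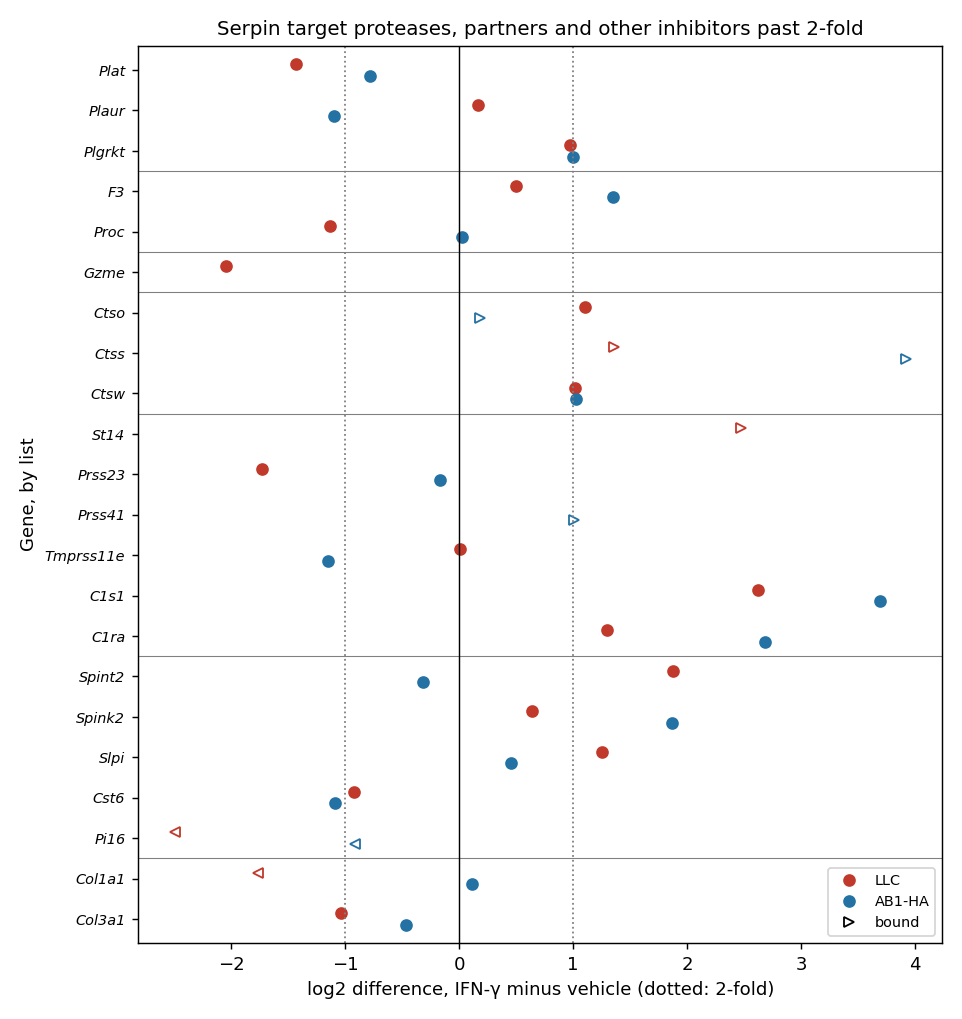
Log2 difference of IFN-γ minus vehicle in LLC (red) and AB1-HA (blue) for the listed proteases, partners and other inhibitors past 2-fold in either line, with horizontal lines between lists, triangles for bounds and dotted lines at 2-fold. C1s1 and C1ra lie right of the line in both lines, Plat and Gzme left of it in LLC, and Spint2 right of it in LLC only.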

How the data were processed

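RNA of 2 mouse tumour cell lines was measured on 4 Agilent 1-colour arrays of 1 slide, 1 array per group. Per the labels' protocols, column-purified RNA was labelled with Cy3. Per the file headers, the deposited intensity of each spot comes from Feature Extraction 10.7.1.1 (10.7 per the submitters' processing notes) which subtracted the background and did not normalize between arrays. The authors' deposited value table holds log2 values. Set against the scanner signals, its scale is log2 relative to each array's 75th percentile, centred on each probe's median, with the direction of the signal. The columns had medians of 0.08 and −0.13 for LLC with IFN-γ and vehicle and −0.08 and 0.11 for AB1-HA with IFN-γ and vehicle, and the steps behind it are not stated in the labels.

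Control spots and spots marked as non-uniform or population outliers (166 to 201 per array) were left out, the spots of a probe were averaged, and signals were scaled to each array's 75th percentile. A probe was well above background where the scanner marked 0.5 or more of its spots. Accessions were matched to a RefSeq table of GRCm38.p6, which was used for names and gene order and named 26581 of 39429 probes. A gene was read from the probe of highest mean level across arrays, which decided among several probes for 14 serpins. Without replicates there is no test, and 2-fold was the call. The script that computes the differences was checked on simulated arrays.

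The serpins, the lists and the calls were chosen with earlier results of these data known. Every serpin measured on any array is named, except 1 that is counted but not reported here. Of those named, the ones past 2-fold or among the 6 brightest have all 4 values. Listed genes are named where past 2-fold with IFN-γ (up to 4 per list and line), or among the 3 largest differences per direction between vehicle arrays. Gzmb, Ctsg, Prtn3, Furin and Plau were added as partners of named serpins after their values were seen. The list of markers also held mesenchymal (7 to 9 of 9 measured per array), leukocyte (4 of 7) and endothelial (2 of 4) genes. A search for the hinge of the reactive loop in serpin proteins was planned and not run, since no protein sequences were used here. The alternatives were array median scaling, quantile and cyclic loess normalization, normexp (offset 50, on median signals), the value table, a stricter background filter and none, the mean over probes, and outlier spots kept. Software was R 4.3.3 (limma 3.58.1) and Python 3.11.15 (pandas 2.3.3, numpy 2.4.6, scipy 1.17.1, matplotlib 3.10.9).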

Additional observations from a re-analysis of the deposited data

How the results depend on the processing

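Each value rests on 1 array per group, so no difference has a replicate check, and signal over background limits the dim serpins most. No paired analysis was possible because each group held 1 array with no replicate number.

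In LLC with IFN-γ, the count of serpins higher (10) was 4 with normexp and the count lower (0) was 1 with no background filter, while the median (0.47) was 0.32 with array median scaling, 0.31 with loess, 0.24 with no filter, 0.35 with normexp and 0.33 with quantile normalization. In AB1-HA with IFN-γ, the count higher (2) was 4 with no filter and 1 with the stricter filter; the count lower (1) was 0 with loess, normexp and the mean over probes, 5 with no filter and 2 with the value table; and the median (−0.09) was 0.0096 with loess and −0.20 with no filter. For LLC against AB1-HA with IFN-γ, the count higher (10) was 4 with normexp. The count lower (5) was 3 with the mean over probes, 9 with no filter, 2 with normexp and 1 with the stricter filter. The median (−0.05) was −0.18 with array median scaling, 0.010 with loess, 0.13 with the mean over probes, 0.17 with no filter, 0.12 with normexp, −0.14 with outlier spots kept and 0.0572 with the stricter filter. For LLC against AB1-HA with vehicle, the count higher (3) was 6 with no filter, 1 with normexp and 5 with the value table, and the count lower (11) was 7 with loess, 4 with normexp and 5 with the stricter filter. That median (−0.56) was −0.31 with loess, −0.30 with no filter, −0.35 with normexp and −0.43 with quantile normalization. The count of serpins whose IFN-γ effects were 2-fold apart (6) was 17 with no filter and 2 with normexp. Of single-gene values under the alternatives, 1081 kept their side of 2-fold and their direction, 46 lost a call and 15 gained one. Another 43, under 2-fold as reported, changed direction. Of those past 2-fold as reported, 1 reversed: Serpina1a's difference of effects was −0.049 with normexp. The cause of these shifts was not tested.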

Other observations

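The LLC vehicle array stood alone more often in the low direction than the others did. Among 11985 genes measured on all 4 arrays, 62 (0.517%) were at least 2-fold lower there than on each of the other 3 arrays while those 3 lay within 2-fold of each other, and 8 (0.0668%) were higher there. The counts lower and higher were 9 and 10 for LLC with IFN-γ, 12 and 18 for AB1-HA with IFN-γ, and 14 and 9 for AB1-HA with vehicle. Serpinb6d and Serpinb6e are the serpins among the 62, and Serpina1c is the serpin among the 10 that were higher in LLC with IFN-γ.

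On chromosome 13 the order of measured genes runs Serpinb1a, Serpinb6b, Serpinb9, Serpinb1b, Serpinb9c, Serpinb9f, Serpinb9g, Serpinb6d, Serpinb6e, Serpinb6c and Serpinb6a. Serpinb9, which was higher with IFN-γ in both lines, lies there between Serpinb6b, which was 63.7-fold lower in LLC than in AB1-HA with IFN-γ, and Serpinb1b, which was at least 2.55-fold lower (short of 2-fold with normexp, at −0.97 on the log2 scale). Serpinb9c, Serpinb9f and Serpinb9g, successive among the measured genes, were all at background in LLC and highest in AB1-HA with vehicle. Between them lie Serpinb9d and Serpinb9e, not well above background on any array, and Serpinb9h, which had no named probe. No test of position was run. On chromosome 12, Serpina3f, Serpina3h and Serpina3i passed 2-fold in LLC with IFN-γ, and the genes next beyond them with a probe, Serpina3c on one side and Serpina3j on the other, were not well above background on any array.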
